A study of Mus musculus with 2 samples.

Results

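The cells described here are bone marrow progenitors that carried high levels of G2 and mitosis transcripts, called G2/M cells below. A cell was taken as one when the summed unique molecular identifiers (UMIs, 1 per captured transcript molecule) of 16 rule genes made up at least 0.5% of its UMIs, among barcodes with at least 500 detected genes and under 10% mitochondrial UMIs. The rule genes were Mki67, Top2a, Ccnb1, Ccnb2, Cdk1, Cdc20, Birc5, Aurka, Plk1, Cenpa, Cenpe, Cenpf, Tpx2, Ube2c, Nusap1 and Hmmr. Of 7823 kept cells, 791 met the rule, 162 of 3253 in library 1 and 629 of 4570 in library 2. The cells were chosen by these measured values, so the high levels of the rule genes are a description and not a result.

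The study sorted multipotent progenitors (MPPs) from mouse bone marrow as lineage-negative cells positive for Sca-1, c-kit, CD34 and the Flt3 marker, and sequenced them by 10x single-cell 3' RNA-seq. There were 2 samples, C57BL/6 wild-type and C57BL/6 Spp1-/-, which lacks the gene for osteopontin, a secreted phosphoprotein, and both were taken 20 hours after intraperitoneal thioglycollate, an irritant that brings on a sterile peritonitis. The ages and the number of mice per sample are not given in the sources used here, and each genotype had 1 library. The matrix pools both libraries under a barcode suffix, called library 1 and library 2 here, and the labels do not say which suffix is which genotype. The libraries are therefore described side by side with no test, and no direction is drawn between genotypes. Spp1 itself had 33 UMIs in 30 of the 3253 kept cells of library 1 and 1 UMI in the 4570 kept cells of library 2. Among G2/M cells it had 4 UMIs in library 1 and none in the 629 cells of library 2, which allows a share of up to 0.477% of cells with a UMI by a floor of 3 counts and 0.585% by the exact binomial interval.

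A dividing cell copies its DNA in S phase, prepares for division in G2 and separates its chromosomes in mitosis. Genes of the last steps are switched on together late in the cycle. Their products include cyclin B with Cdk1, which starts mitosis, the kinases of the Aurora and Polo families, the centromere histone CENP-A, and the anaphase-promoting complex (APC/C), which with Cdc20 and the ubiquitin-conjugating enzyme Ube2c has mitotic proteins destroyed. Multipotent progenitors divide far more often than the stem cells above them, and many of them already carry transcripts of the lymphoid or myeloid fates.

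Promoters of such genes are known for pairs of a CCAAT box, bound by NF-Y, and a cell cycle genes homology region with the letters TTTGAA, bound by MuvB complexes with B-Myb and FoxM1. The promoters of 3 of the genes that mark the G2/M cells show how often these letters occur. Each line runs 5′ to 3′ in the direction of the gene and ends at most at the RefSeq start, with bases that GENCODE M21 places inside the gene left out. Capitals mark CCAAT and TTTGAA on either strand, so ATTGG and TTCAAA are marked too. The windows are from RefSeq promoters on GRCm38.p6, at chr2:164769679-164769897 on the plus strand for Ube2c, chr13:100786571-100786736 on the minus strand for Ccnb1 and chr11:99024190-99024439 on the minus strand for Top2a.
Ube2c: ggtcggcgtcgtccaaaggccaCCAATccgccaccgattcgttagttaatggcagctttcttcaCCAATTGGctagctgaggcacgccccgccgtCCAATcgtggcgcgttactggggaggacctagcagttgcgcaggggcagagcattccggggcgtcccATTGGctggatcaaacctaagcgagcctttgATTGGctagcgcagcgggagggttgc
Ccnb1: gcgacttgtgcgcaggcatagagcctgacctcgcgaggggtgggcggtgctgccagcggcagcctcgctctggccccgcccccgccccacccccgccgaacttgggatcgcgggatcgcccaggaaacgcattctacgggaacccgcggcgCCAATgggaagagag
Top2a: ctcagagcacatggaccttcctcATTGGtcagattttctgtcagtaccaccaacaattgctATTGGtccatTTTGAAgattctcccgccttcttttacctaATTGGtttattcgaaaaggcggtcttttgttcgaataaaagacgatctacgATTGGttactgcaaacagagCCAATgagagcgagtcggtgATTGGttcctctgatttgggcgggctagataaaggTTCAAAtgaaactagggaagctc
The Top2a window held 6 CCAAT and 2 TTTGAA matches, the Ube2c window 6 CCAAT matches, of which 2 overlap on opposite strands, and the Ccnb1 window 1. Over its full 250 bases Ube2c also held TTTGAA, in the 31 bases left out here. Of the 15 rule genes with a RefSeq promoter (Tpx2 had none in the table), 13 held CCAAT and 6 held TTTGAA in the 250 bases before the start. CCAAT was thus in 86.7% of them, against 33.8% of all 32851 promoters, and TTTGAA in 40%, against 15.99%. Both motifs together were in 40% of the rule genes' promoters and in 5.55% of all promoters. The window decides this count. With the 50 bases after the start added, TTTGAA was in 11 of the 15 (73.3%), against 17.9% of all promoters, and both motifs together were in 73.3%, against 6.95%. For 95 further genes of G2 and mitosis, 83 promoters of 74 genes were found, and 71.1% held CCAAT and 36.1% held TTTGAA. Promoters of the genes for DNA replication held TTTGAA in 9.68% of 31 and CCAAT in 58.1%. A match only shows that the letters are in the window.

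Kept cells that were in G2 or mitosis made up 4.98% of library 1 (95% exact binomial interval 4.26 to 5.78) and 13.8% of library 2 (12.8 to 14.8). The intervals cover counting error only. The rule-gene share fell off smoothly through the threshold, with 103 cells at 0.4 to 0.5% and 54 at 0.5 to 0.6% in library 1, and 249 and 202 cells in library 2. The group is therefore a range of a continuous measure rather than a separate cluster. The median G2/M cell had a rule-gene share of 0.664% in library 1 and 0.673% in library 2, and the highest reached 1.54% and 2.30%. A median of 11 and 13 of the 16 rule genes was detected per G2/M cell, against 1 and 2 in the other kept cells. Cells just inside and just outside the threshold had similar levels of the G2 and mitosis genes that the rule did not use. In library 1 those genes summed to 22513 counts per 1000000 UMIs (CPM) at 0.5 to 0.6% and 20980 CPM at 0.4 to 0.5%, and in library 2 to 22228 and 21741 CPM.

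**Figure D1:**
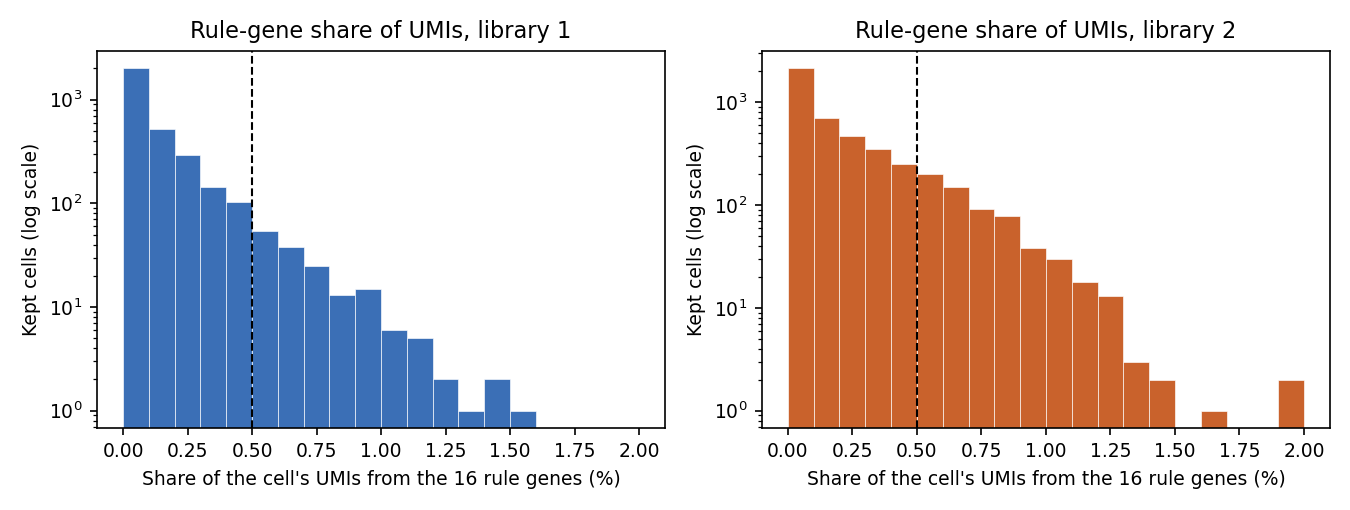
Number of kept cells (y axis, log scale) by the share of a cell's UMIs from the 16 rule genes (x axis, %), in steps of 0.1, for library 1 (left) and library 2 (right), where the last bar takes all cells at 1.9% or more. The dashed line is the threshold of 0.5%, and the counts fall through it without a gap.

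G2/M cells were deeper than the rest. Their median was 3703 UMIs in library 1 and 5199 in library 2, which is 1.33 and 1.44 times the medians of 2787 and 3614 UMIs of the other kept cells. Of the 5% of cells with the most UMIs in each library, 11 and 70 were G2/M cells. No doublet caller was run, and the part of droplets with more than 1 cell in these depths was not tested. The gap between the libraries was not the same at all depths. Under 2000 UMIs the shares were 1.36% (11 of 809, 0.681 to 2.42) and 3.61% (20 of 554, 2.22 to 5.52). Among cells with 2000 to 3000 UMIs, 3.16% of library 1 and 3.35% of library 2 were in G2 or mitosis, and at 3000 to 4000 UMIs 7.78% and 8.29%. The shares were 8.45% (31 of 367 cells, interval 5.81 to 11.8) and 16.7% (148 of 885, 14.3 to 19.3) at 4000 to 5000 UMIs, and 10.6% (22 of 207, 6.78 to 15.6) and 26.7% (146 of 547, 23.0 to 30.6) at 5000 to 6000. With every cell of at least 2000 UMIs thinned to 2000 and the rule applied to the thinned counts, the shares were 7.32% (6.32 to 8.43) and 16.7% (15.6 to 17.9). The thinning left out 1363 shallower cells, 31 of them G2/M cells.

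**Figure D2:**
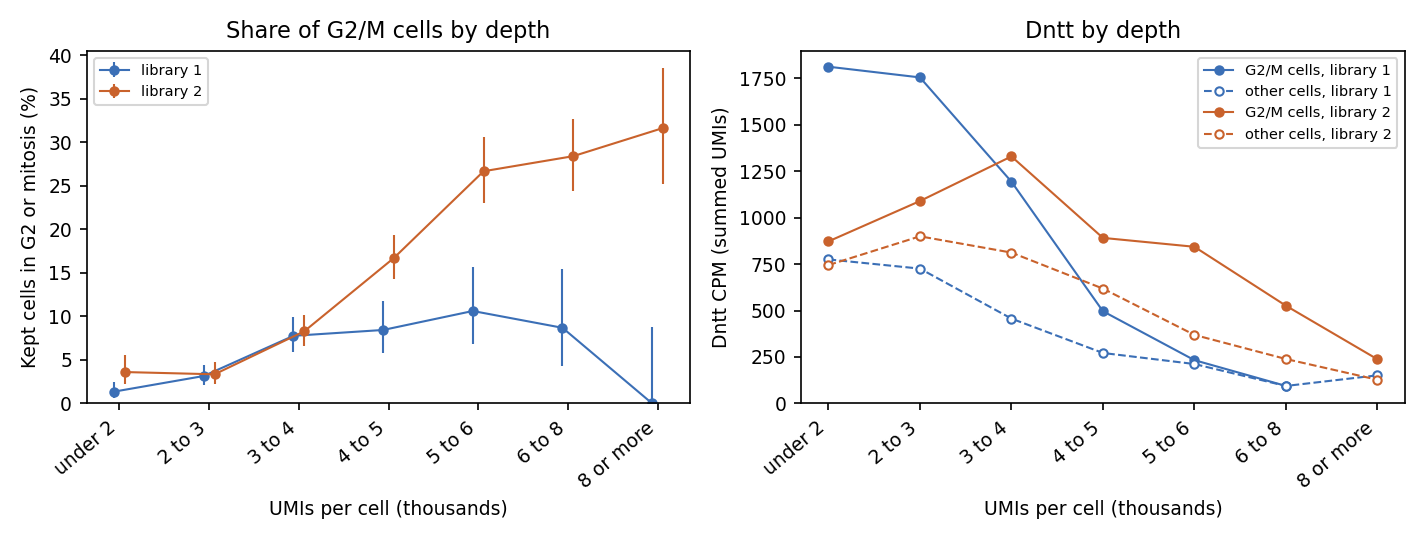
Left, share of kept cells in G2 or mitosis (y axis, %) by UMIs per cell (x axis, ranges), with exact binomial intervals for library 1 (blue) and library 2 (orange). Right, Dntt level (y axis, CPM of summed UMIs) in G2/M cells (filled, solid) and other kept cells (open, dashed) over the same depth ranges. Shares of the libraries overlap up to 4000 UMIs and part above it, and Dntt is lower in each range above 4000 UMIs than at 3000 to 4000, in both groups of cells.

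The marker genes of the label are rule genes, so their levels are set by the choice of cells and are given as a description. Ube2c (chromosome 2, 164769898 to 164778822, plus strand) made up 19.0% of the rule-gene UMIs of G2/M cells in library 1 and 17.0% in library 2, more than any other rule gene in either library. In thinned cells Ube2c had a UMI in 87.4% of 151 G2/M cells of library 1 and 87.5% of 609 of library 2. In the other thinned cells it was found in 10.6% and 13.2%. Of cells with under 0.1% of UMIs from both the rule genes and the replication genes, 1.52% of 66 and 0 of 97 had it. That share is kept low by the choice of those cells. Cenpa (chromosome 5, 30666777 to 30674830, plus strand) was found in 72.8% and 71.1% of thinned G2/M cells and in 8.98% and 9.54% of the other thinned cells. Ccnb1 (chromosome 13, 100778650 to 100786570, minus strand) was found in 45.7% and 42.0%, against 4.27% and 5.61%. Top2a (chromosome 11, 98992943 to 99024189, minus strand), the topoisomerase that untangles replicated DNA, separated the groups least of these markers, with 79.5% and 78.7% against 38.4% and 43.1%. All 4 genes are protein-coding in GENCODE M21 on GRCm38. The G2/M cells with thinned counts had a median of 3825 and 5247 UMIs before thinning, against 3219 and 3890 in the other thinned cells.

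Markers of mature cells, MHC class II genes apart, were scarce. The T and NK cell list (7 genes) had 0 UMIs in the 162 G2/M cells of library 1 and 3 in library 2. Ms4a1 and Pax5 of the B cell list were at 0 in both libraries, and 8 mature neutrophil genes summed to 4 and 20 UMIs. The 7 B cell genes had 31 and 275 UMIs, of which Cd79b gave 30 and 265. That is 50.2 and 80.3 CPM, against 68.7 and 71.5 CPM in other kept cells. The 7 mature erythroid genes had 51 and 130 UMIs, and the 7 macrophage genes 23 and 75. For the erythroid genes this is 82.6 and 38.0 CPM, against 103 and 50.5 CPM in other kept cells. For the macrophage genes it is 37.2 and 21.9 CPM, against 47.3 and 42.5 CPM. The 7 genes of the MHC class II and dendritic list had 280 and 1694 UMIs, of which H2-DMa gave 184 and 1008. MHC class II genes took at least 0.5% of the UMIs in 1 G2/M cell of each library, among 52 and 6 such kept cells. Of the barcode sequences, 32 occurred in both libraries, and 3 G2/M cells carried such a barcode.

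Each G2/M cell was then paired with 1 other kept cell of the same library with the nearest total of UMIs, within 5%. All 162 cells of library 1 and 626 of 629 of library 2 found a partner, and the medians matched at 3703 against 3702 and 5186.5 against 5186 UMIs. Levels are CPM over the summed UMIs of a set of cells, and differences are log2 ratios of these levels with a 95% exact Poisson interval for counting error. A gene was called higher or lower when its ratio passed 1.5-fold in the same direction in both libraries. Of 7714 genes with at least 50 UMIs, 257 were higher (3.33%) and 178 lower (2.31%), 5.64% either way. All 16 rule genes were among the higher ones, which follows from the choice of cells.

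The rest of the mitotic programme was high in the same cells. Across the 95 G2 and mitosis genes outside the rule, the summed level was 24458 CPM in G2/M cells and 14543 CPM in paired cells of library 1, a log2 ratio of 0.75 (0.71 to 0.79). In library 2 it was 24226 against 16879 CPM, a log2 ratio of 0.52 (0.51 to 0.54). Of the 91 genes measured, 50 were called higher and 1 lower, against 3.33% and 2.31% of all genes. The median log2 ratio over the 91 was 1.03 and 0.78, while over all genes it was 0.00 and 0.01. These genes differed widely among themselves, from those with several-fold ratios to others that hardly moved.

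Among mitotic cyclins, kinases and phosphatases, 9 of 15 measured genes were higher. Cdc25c, a phosphatase that activates Cdk1, stood at 43.7 CPM in G2/M cells and 3.24 CPM in paired cells of library 1, and at 38.1 and 10.1 CPM in library 2. Its relative Cdc25b had log2 ratios of 2.17 and 2.42, and the centrosome kinase Nek2 of 2.81 and 2.27. Aurkb, the kinase of the chromosomal passenger complex, had 170 against 79.3 CPM and 170 against 105 CPM. The gene called lower was Pkmyt1, a kinase that holds Cdk1 inactive before mitosis, with 12.95 against 25.9 CPM in library 1 and 10.9 against 17.2 CPM in library 2. Its interval in library 1 was −2.43 to 0.31 on the log2 scale, on 8 and 16 UMIs.

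Of the genes for the APC/C and mitotic exit, 4 of 11 were higher. Cdkn3, a phosphatase that acts on cyclin-dependent kinases, had 142 against 11.3 CPM in library 1 and 91.3 against 16.6 CPM in library 2, log2 ratios of 3.65 (2.55 to 5.01) and 2.46 (2.05 to 2.90). Fzr1, which encodes the APC/C activator Cdh1, had ratios of 2.62 and 1.59, and the checkpoint gene Bub3 of 1.24 and 0.97. Core subunits of the complex did not follow: Anapc11 was at −0.27 and −0.23, and Cdc26 at −0.15 and 0.00. Besides Cdkn3, Fzr1 and Bub3, the gene called was Cdca3, a trigger of mitotic entry, at 325 against 141 CPM in library 1.

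The list for the spindle, kinesins and cytokinesis had the most calls, 23 of 28. Knstrn, a spindle and kinetochore adaptor, had 206 against 34.0 CPM in library 1 and 168 against 56.5 CPM in library 2. The tubulin gene Tuba1c had 248 against 55.1 CPM and 200 against 50.9 CPM, while Tuba1b was at log2 ratios of 0.48 and 0.33 and the microtubule-destabilizing Stmn1 at 0.20 and 0.07. Of the last 300 bases of the Tuba1c transcript, 43.0% of the 50-base stretches also occur in other tubulin genes or pseudogenes, so counts within the family are uncertain. The 9 measured kinesin genes were all called higher, among them Kif2c at 1.96 and 1.53 and Kif11 at 1.97 and 0.81.

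Of 19 kinetochore and centromere genes, 10 were higher. They included Dlgap5 (log2 ratios 2.38 and 1.66), which acts on spindle microtubules, and the passenger complex member Cdca8 (1.54 and 1.08). Genes of the constitutive centromere network were not called, with Cenpm at 0.07 and −0.30 (−0.44 to −0.15), Cenph at −0.31 and −0.45 and Cenpw at 0.29 and 0.04. Of 18 genes for condensin and mitotic chromatin, 4 were higher. Hmgb2, a chromatin protein of the HMG box family, had 2673 against 1294 CPM in library 1 and 2103 against 1238 CPM in library 2. The histone variant gene H2afx had 181 against 45.3 CPM and 203 against 92.0 CPM, and the condensin gene Smc4 had 1.01 and 0.49.

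Outside the lists, Fam64a, Psrc1, Aspm and Lockd had the largest ratios in both libraries among genes with at least 200 UMIs. Fam64a had 165 against 30.8 CPM in library 1 and 162 against 34.3 CPM in library 2. Psrc1, a microtubule-associated gene, had ratios of 3.46 and 2.20, and Aspm, which acts at spindle poles, of 2.94 and 1.99. Lockd, a non-coding RNA encoded beside the cell cycle inhibitor gene Cdkn1b, had 353 against 98.8 CPM and 273 against 87.3 CPM. Cdkn1b itself was at 0.69 and 0.76, one of 2 genes called higher of the 10 measured for G1 cyclins, kinases and inhibitors. The other was the inhibitor gene Cdkn2d, with 113 against 56.7 CPM in library 1 and a log2 ratio of 0.61 in library 2.

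Genes of DNA replication were low in the same cells. The 32 genes of the S phase list summed to 2443 CPM in G2/M cells and 4407 CPM in paired cells of library 1, a log2 ratio of −0.85 (−0.94 to −0.76). In library 2 they summed to 2871 against 5200 CPM, −0.86 (−0.89 to −0.82). All 32 were below 0 in both libraries and 23 were called lower, none higher, against 2.31% of all genes lower. Pcna, the sliding clamp of the replication fork, had 125 against 329 CPM and 131 against 301 CPM. Ung, which removes uracil from DNA, had 3 UMIs in G2/M cells of each library, against 15 and 121 in paired cells, log2 ratios of −2.32 (−4.75 to −0.50) and −5.34 (−7.63 to −3.75). Rrm1, a ribonucleotide reductase subunit, differed little at −0.16 and −0.24, while its partner Rrm2 was at −1.39 and −1.28.

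Cyclin E followed the S phase genes. Ccne2 had 0 UMIs in the 162 G2/M cells of library 1 against 13 in paired cells, and 7 against 63 UMIs in library 2. Among 16 measured regulators of cell cycle transcription, E2f1 (−1.59 and −1.81), E2f8 (−1.19 and −0.76) and E2f4 (−0.72 and −0.72) were called lower. None was called higher, against 2.31% of all genes lower and 3.33% higher. In library 1 the intervals of these genes included 0, on 3 against 9 UMIs for E2f1, 7 against 16 for E2f8 and 17 against 28 for E2f4. Foxm1, a regulator of mitotic genes, was at 1.49 and 0.56. Outside the lists, low genes included Tcf19 (−2.07 and −1.42), the replication factor Dscc1 (−1.30 and −1.54), the origin recognition gene Orc6 (−1.06 and −0.88) and the metallothionein gene Mt1 (−1.18 and −1.15).

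**Figure D3:**
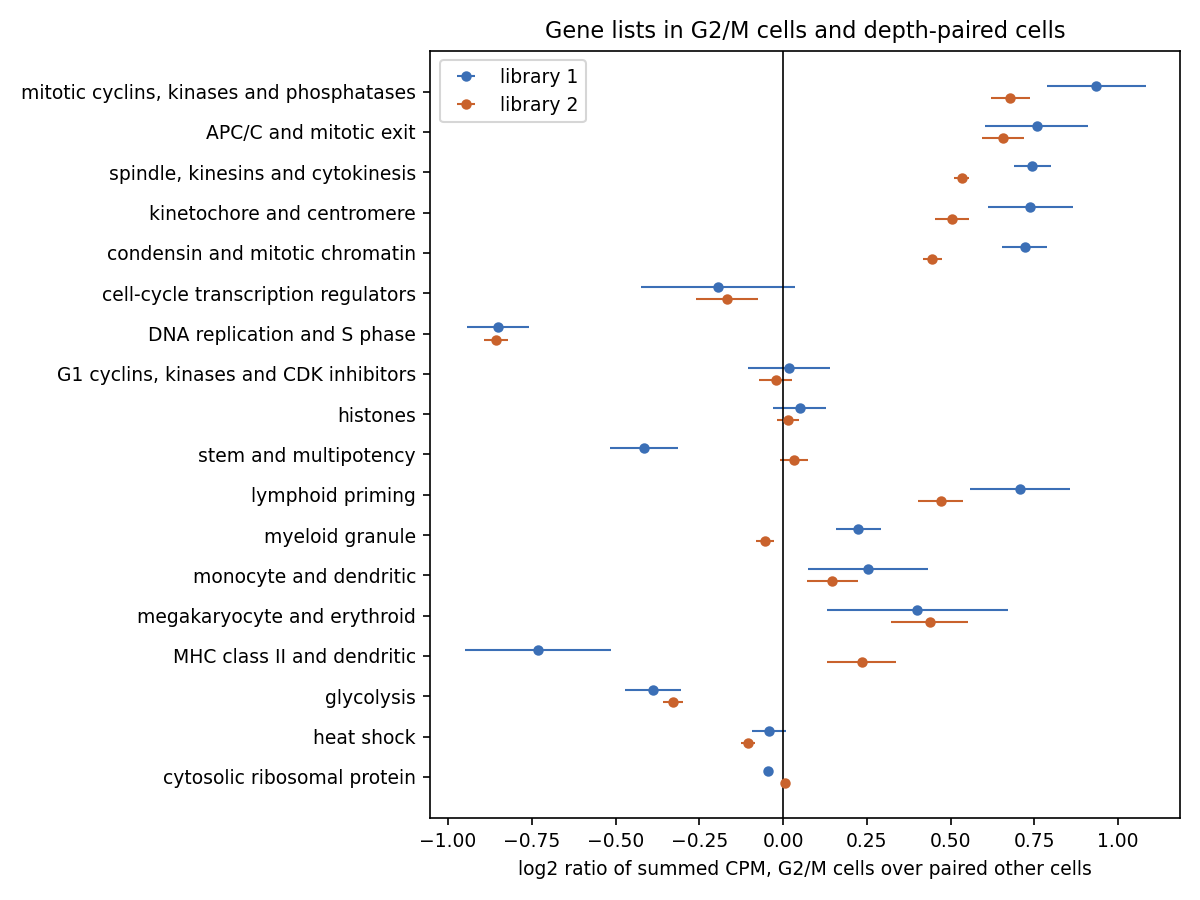
Log2 ratio of summed CPM in G2/M cells over depth-paired other cells (x axis) for 18 gene lists (y axis) in library 1 (blue) and library 2 (orange), with 95% exact Poisson intervals. The 5 mitotic lists lie between 0.45 and 0.93 and the replication list at −0.85 and −0.86, while lineage lists differ between the libraries in part.

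A second comparison set G2/M cells beside cells in replication. Replicating cells here are other kept cells with at least 0.5% of UMIs from the S phase list, 1010 in library 1 and 1920 in library 2, so their S phase level is set by that choice. Paired in the same way, 56 of the 91 G2 and mitosis genes were higher and 1 lower, against 4.48% and 3.96% of 7633 genes (8.44% either way). Cdkn3 was at 142 against 6.48 CPM in library 1 and 91.6 against 8.05 CPM in library 2. The summed log2 ratio of all 95 genes of these lists was 0.66 and 0.58. G2/M cells were not wholly free of replication transcripts, with a median S phase share of 0.214% and 0.263% of UMIs, against 0.394% and 0.491% in other kept cells.

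G2/M cells were also compared among themselves. The split used rule-gene UMIs, of which the median G2/M cell had 27 in library 1 and 37 in library 2. Counting error in that share was not told apart from position in the cycle. Cells were split into tertiles, after the data had been seen, by the share of their rule-gene UMIs that came from 9 genes of late G2 and mitosis (Ccnb1, Ccnb2, Cdc20, Aurka, Plk1, Cenpa, Cenpe, Cenpf and Hmmr). The rest of those UMIs came from the other 7 rule genes, which include Ube2c, Top2a and Birc5. Late and early name the sides of this split, and position in the cycle was not tested. In library 1 the lowest and highest tertiles held 54 and 53 cells, with medians of 3612.5 and 3780 UMIs, and in library 2 211 and 209 cells, with 5154 and 5159. Past 1.5-fold in both libraries were 49 genes higher (1% of 4877 tested) and 76 lower (1.56%) in the late tertile, 2.56% either way, rule genes included. The S phase list was lower in the late tertile, at log2 ratios of −0.41 (2182 against 2900 CPM) and −0.43 (2552 against 3431 CPM). Thymidine kinase gene Tk1 had 63.2 CPM in late against 151 CPM in early cells of library 1, and 63.7 against 136 CPM in library 2. The linker histone gene Hist1h1b, which peaks with DNA replication, had 107 against 206 CPM and 131 against 225 CPM. Hist1h2bc went the other way, with 77.7 against 30.2 CPM and 69.9 against 32.1 CPM. The sum of the G2 and mitosis genes outside the rule was at −0.04 and −0.03.

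Split instead at the median S phase share within each library, G2/M cells with more S phase transcripts were at log2 ratios of −0.50 and −0.26 for the stem list, −0.31 and −0.37 for the lymphoid list and 0.24 and 0.18 for the myeloid granule list. The median depths were 3836 against 3573 UMIs in library 1 and 5409 against 4975 in library 2. Past 1.5-fold in both libraries were 102 genes higher (1.7% of 5993) and 96 lower (1.6%), 3.3% either way, with S phase genes set by the split. This median split was chosen after the data had been seen.

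Of the lymphoid priming transcripts, Dntt and Ly6d were higher in G2/M cells than in paired cells of both libraries. Dntt, which encodes terminal transferase and marks early lymphoid priming, had 827 CPM in G2/M cells and 419 CPM in paired cells of library 1, and 714 against 437 CPM in library 2. The log2 ratios were 0.98 (0.76 to 1.20) and 0.71 (0.62 to 0.80). The 16 genes of the lymphoid priming list summed to 1546 against 947 CPM and 1317 against 950 CPM, log2 ratios of 0.71 and 0.47. Dntt and Ly6d were called higher of 10 measured and none lower, against 3.33% and 2.31% of all genes. Dntt held 53.5% and 54.2% of the list's UMIs in G2/M cells. Without it, a choice made after seeing the data, the ratios were 0.45 (0.24 to 0.66) and 0.23 (0.14 to 0.32). Il7r, the receptor for interleukin 7, was at 0.83 (−0.44 to 2.19) and 0.54 (−0.04 to 1.13), and Satb1, a chromatin organizer, at 0.38 and 0.48. Flt3, a receptor of the sort, was at −0.04 and 0.11, and Ikzf1, a transcription factor of lymphoid fate, at −0.11 and 0.22.

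Few cells carried some of these transcripts. Ly6d had 92 UMIs in 17 of 162 G2/M cells of library 1, and 2 cells held 54.3% of them. In library 2 it had 84 UMIs in 25 of 629 cells, and 2 cells held 38.1%. Other cells of library 2 under 0.1%, at 0.1 to 0.3% and at 0.3 to 0.5% of rule-gene UMIs had 26.6, 28.9 and 29.5 CPM of Ly6d. G2/M cells there had 7.19 CPM at 0.5 to 0.75%, 81.8 CPM at 0.75 to 1% and 10.8 CPM at 1% or more. Ly6d in library 2 was thus higher than in the paired cells, but not in each class than in cells below the threshold. Dntt was spread over 108 of 162 and 413 of 629 G2/M cells, and the 2 cells with the most held 7.44% and 2.94% of its UMIs. Without the 2 G2/M cells and the 2 paired cells richest in the list, the lymphoid ratio was 0.70 and 0.47.

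In thinned cells, Dntt had a UMI in 55.6% of 151 G2/M cells (47.3 to 63.7) and 39.7% of 151 paired cells (31.9 to 48.0) of library 1. In library 2 the shares were 50.7% of 606 (46.6 to 54.7) and 39.4% of 606 (35.5 to 43.5). Before thinning they were 66.7% and 46.9% in library 1 and 65.7% and 55.8% in library 2. Of 33 thinned cells rich in MHC class II transcripts in library 1, a kind of cell not known for Dntt, 9.09% had a Dntt UMI (1.92 to 24.3). These cells and the 1 such G2/M cell together had a median of 3491.5 UMIs. At least 2 UMIs of the myeloid granule genes Mpo, Ctsg, Elane, Prtn3 and Ms4a3 were found in 59.6% of G2/M cells against 70.9% of paired cells in library 1, and in 65.7% against 71.5% in library 2. The intervals of the granule shares overlap in both libraries. Prtn3 alone had a UMI in 72.8% of thinned G2/M cells of library 1 and in 69.7% (51.3 to 84.4) of the 33 cells rich in MHC class II transcripts. Mpo was found in 21.2% against 6.06%, Ctsg in 15.2% against 3.03%, Elane in 1.32% against 0 and Ms4a3 in 1.99% against 3.03%, with overlapping intervals. The granule classes count Prtn3, so they are given as UMIs found and are not read as expression. Cells with Dntt and without granule transcripts were 29.8% of G2/M cells against 15.2% of paired cells in library 1. In library 2 they were 22.6% against 16.8%, with overlapping intervals (19.3 to 26.1 and 13.9 to 20.1). Among all other thinned cells they were 18.0% and 21.7%. In library 2 the gap was thus small without pairing on depth. Of thinned cells low in both rule-gene and replication UMIs, which were shallower, 24.2% of 66 and 33.0% of 97 were of this kind. Dntt itself was found in 40.9% and 49.5% of those cells.

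The level of Dntt followed the rule-gene share within the G2/M cells. In library 1 it was 522 CPM in the 108 cells at 0.5 to 0.75%, 1113 CPM in the 37 cells at 0.75 to 1%, and 2837 CPM (2387 to 3348) in the 17 cells at 1% or more. In library 2 it was 490, 1008 and 1684 CPM (1535 to 1844) in 404, 156 and 69 cells. Below the threshold the order was different, with 567 CPM under 0.1%, 345 CPM at 0.1 to 0.3% and 374 CPM at 0.3 to 0.5% in library 1, and 756, 462 and 389 CPM in library 2. The share of cells with a Dntt UMI reached 88.2% (15 of 17) and 78.3% (54 of 69) in the highest class.

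The granule genes Prtn3 and Mpo went the other way over the same classes. Prtn3, which encodes proteinase 3, had 1516, 986 and 345 CPM from the lowest to the highest class of G2/M cells in library 1, and 1460, 1067 and 822 CPM in library 2. Mpo, myeloperoxidase, had 221, 103 and 40.5 CPM and 163, 130 and 54.1 CPM. The whole myeloid granule list changed less. At 0.5 to 0.75%, 0.75 to 1% and 1 to 1.5% it had 6496, 5861 and 5682 CPM in library 1. In library 2 it had 6406, 5943 and 5605 CPM. Clec12a of that list did not fall, with 74.6, 71.6 and 263 CPM in library 1 and 87.1, 88.2 and 93.8 CPM in library 2. Depth moved with these classes: the median was 3877, 3294 and 3022 UMIs in library 1 and 5484.5, 5010 and 3982 UMIs in library 2. Its part in the trend was not tested across classes.

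Within ranges of depth, Dntt was higher in G2/M cells in most ranges but not at the same size. In library 1 it was 1754 CPM in 31 G2/M cells against 725 CPM in other cells with 2000 to 3000 UMIs, 1193 against 457 CPM at 3000 to 4000, and 496 against 272 CPM at 4000 to 5000. At 5000 to 6000 UMIs it was 233 against 212 CPM, and at 6000 to 8000, with 10 G2/M cells, 94.4 against 94.1 CPM. In library 2 the values were 1089 against 899 CPM at 2000 to 3000, 1329 against 812 at 3000 to 4000, 891 against 618 at 4000 to 5000, 843 against 369 at 5000 to 6000 and 526 against 239 CPM at 6000 to 8000 UMIs.

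**Figure D4:**
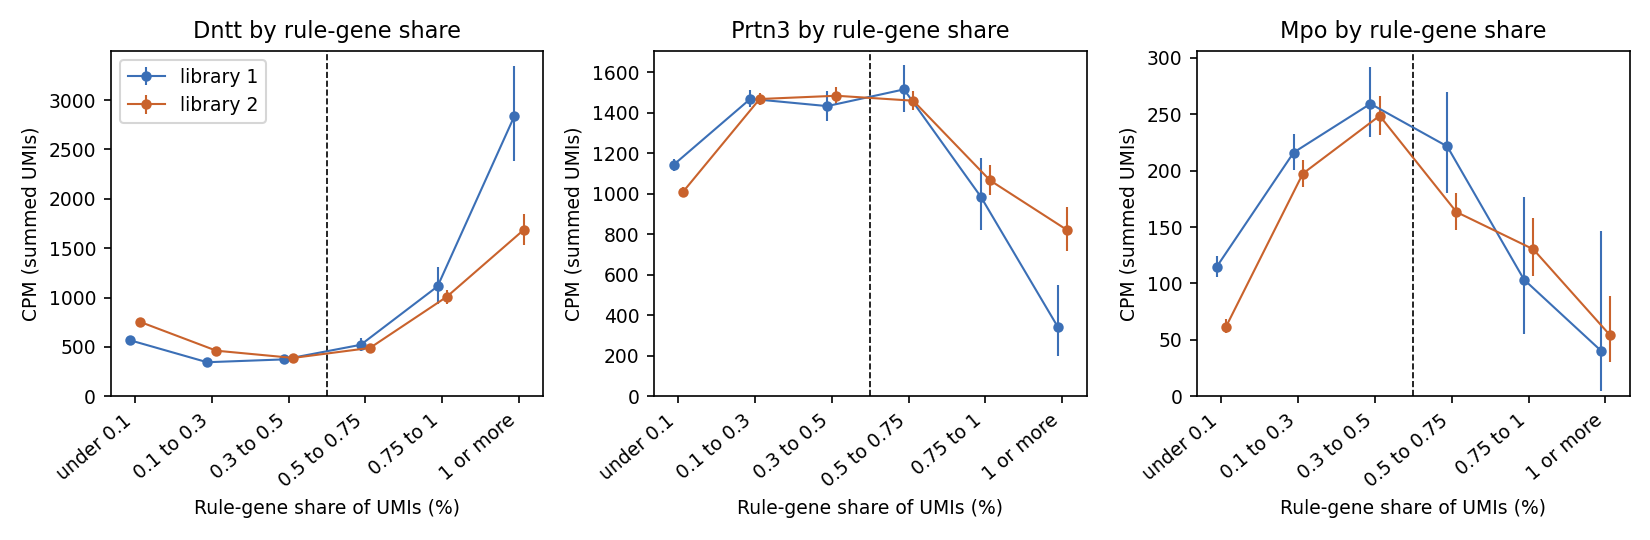
Levels of Dntt, Prtn3 and Mpo (y axes, CPM of summed UMIs with 95% exact Poisson intervals) by class of rule-gene share (x axes, %) in library 1 (blue) and library 2 (orange), where classes right of the dashed line are G2/M cells. Dntt reaches 2837 and 1684 CPM in the highest class, while Prtn3 and Mpo are lowest among G2/M cells there.

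Read from the side of the lineage, the share of cells in G2 or mitosis was higher among cells with Dntt than among all thinned cells in both libraries, with overlapping intervals. Among thinned cells with a Dntt UMI, 8.81% (84 of 953, 7.09 to 10.8) met the rule in library 1 and 17.7% (307 of 1739, 15.9 to 19.5) in library 2, against 6.18% (5.26 to 7.21) and 15.2% (14.1 to 16.3) of all thinned cells. All thinned cells include those with Dntt, so this overlap does not set cells with Dntt beside cells without it. Without a Dntt UMI, 67 of 1491 thinned cells met the rule in library 1 and 302 of 2277 in library 2. Cells with granule transcripts and no Dntt were at 4.74% (51 of 1076) and 14.2% (231 of 1631), and cells with none of the lineage transcripts at 2.33% (6 of 258) and 10.96% (39 of 356). Cells with an Il7r UMI were at 14.5% (9 of 62, 6.86 to 25.8) and 22.5% (25 of 111, 15.1 to 31.4). Cells with at least 2 UMIs of the stem cell genes Hlf, Mecom, Procr and Mllt3 were at 1.96% (1 of 51) and 11.96% (11 of 92), with intervals that include the share of all thinned cells. With the rule applied to the thinned counts, the stem share was 7.84% (4 of 51) in library 1, beside 7.32% of all thinned cells, and the share with none of the transcripts was 4.26% (11 of 258).

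**Figure D5:**
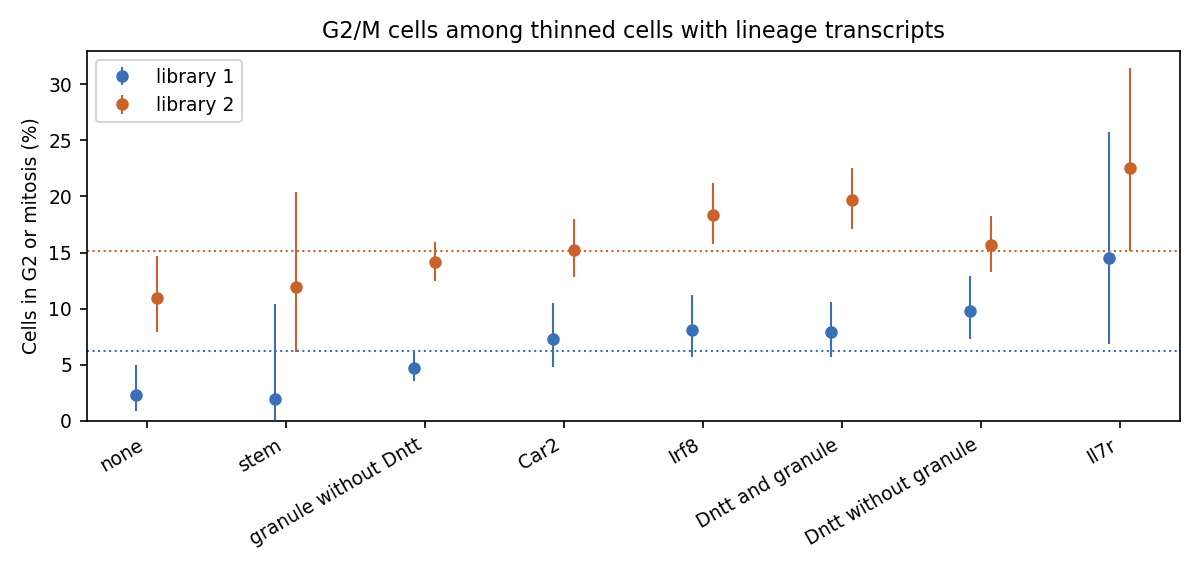
Share of thinned cells in G2 or mitosis (y axis, %) among cells with the transcripts named on the x axis, in library 1 (blue) and library 2 (orange), with 95% exact binomial intervals; dotted lines are the shares of all thinned cells. The 3 classes named by Dntt and granule exclude each other while others share cells. Those with none of the transcripts have the lowest share in library 2, at 10.96% (7.91 to 14.7), beside 11.96% (6.12 to 20.4) for stem.

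Mitotic genes that the rule did not use were then summed over the same cells. Over all thinned cells, the 95 G2 and mitosis genes summed to 13806 CPM (13640 to 13974) in cells with Dntt and 13727 CPM (13594 to 13860) in cells without it in library 1. In library 2 the sums were 15892 CPM (15760 to 16025) and 15830 CPM (15715 to 15946). The intervals of cells with and without Dntt overlapped in both libraries. Among G2/M cells the sum was 26095 CPM with Dntt and 24313 CPM without it in library 1, and 26472 and 23454 CPM in library 2. Among the other cells it was 12618 with Dntt and 13229 CPM without it in library 1, and 13624 and 14664 CPM in library 2.

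Other lineages showed smaller or unequal differences. The myeloid granule list was at 0.22 (0.16 to 0.29) in library 1 and −0.05 (−0.08 to −0.03) in library 2. In library 1 the list leaned on 1 cell for part of its UMIs: Elane had 74 UMIs in 2 G2/M cells, 73 of them in 1 cell, and without the 2 richest cells of each set the ratio was 0.12. In library 2 the paired cells held 156 Elane UMIs, 87.8% of them in 2 cells. Clec12a, a C-type lectin of myeloid cells, was the called gene of that list, with 89.0 against 34.0 CPM and 86.9 against 53.8 CPM. The monocyte and dendritic list was at 0.25 and 0.15. Irf8, a transcription factor of that lineage, had 180 against 107 CPM in library 1 and 207 against 199 CPM in library 2. The macrophage colony-stimulating factor receptor gene Csf1r was at 3 against 6 UMIs in library 1 and a log2 ratio of −0.36 in library 2, and the chemokine receptor gene Ccr2 at 2 against 4 UMIs and −0.47. None of the 7 genes measured was called.

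The megakaryocyte and erythroid list was at 0.40 (0.13 to 0.67) and 0.44 (0.32 to 0.55). Car2, carbonic anhydrase 2, had 363 against 296 CPM and 363 against 273 CPM, and the tetraspanin gene Cd9 29.1 against 4.86 CPM and 27.2 against 14.8 CPM, the latter called higher. Of 2 genes measured, Cd9 was thus the 1 called, against 3.33% of all genes higher. In library 1 it rested on 18 against 3 UMIs. Cells of library 1 under 0.1%, at 0.1 to 0.3% and at 0.3 to 0.5% of rule-gene UMIs had 21.0, 16.9 and 18.0 CPM of Cd9. The paired cells were thus low for Cd9 in that library. Tfrc, the transferrin receptor gene, was on the other side, with 0 against 7 UMIs in library 1 and 59 against 67 UMIs in library 2. Car1 had all of its 10 and 31 UMIs in 1 G2/M cell of each library. The stem and multipotency list was at −0.41 (−0.52 to −0.31) in library 1 and 0.03 (−0.01 to 0.08) in library 2. Without Ifitm1, a choice made after seeing the data, the list was at 0.01 (−0.21 to 0.22) and 0.31 (0.21 to 0.40). Most of its UMIs came from Ifitm1, an interferon-induced membrane protein gene, with 1651 against 2400 CPM and 2138 against 2196 CPM. Cd27, a TNF receptor family member of progenitors, went the other way, with 309 against 256 CPM in library 1 and 341 against 238 CPM in library 2. Ly6a, which encodes the sort marker Sca-1, had 186 against 300 CPM and 216 against 251 CPM. No gene of the stem list was called in either direction.

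The glycolysis list had a summed log2 ratio of −0.39 (−0.47 to −0.30) and −0.33 (−0.36 to −0.30). Aldoa, an aldolase, was the 1 gene called lower of 12 measured and none was called higher, against 2.31% and 3.33% of all genes, with 327 against 580 CPM and 399 against 611 CPM, and Ldha, lactate dehydrogenase, had 1057 against 1454 CPM and 1405 against 1903 CPM. The histone list as a whole was at 0.05 and 0.01, with 2 of 13 genes called higher, against 3.33% of all genes, and none lower. These were Hist1h1c, at 1.58 and 0.74, and Hist1h4d, at 1.27 and 0.80. Heat shock genes were at −0.04 and −0.11, with the mitochondrial chaperone gene Hspd1 at −0.52 and −0.42.

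Levels of mitotic genes in G2/M cells lay close together in the libraries. Library 2 over library 1, the 95 G2 and mitosis genes were at a log2 ratio of −0.02 (−0.04 to 0.01) in G2/M cells, at 24174 and 24458 CPM, and at 0.22 (0.21 to 0.23) in other kept cells. The rule sets the same minimum of rule-gene UMIs in both libraries. Of 6041 genes in G2/M cells, 781 (12.9%) were past 1.5-fold higher in library 2 and 212 (3.51%) lower, with a median log2 ratio of 0.11. Of the 89 G2 and mitosis genes measured there, 6 were higher and 2 lower. Glycolysis genes were at 0.53 (3266 and 4703 CPM), S phase genes at 0.25, stem genes at 0.31 and lymphoid priming genes at −0.24. Kept cells of library 2 had more UMIs, and the part of depth in these values was not tested.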

How the data were processed

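Single-cell RNA was measured in 2 sorted progenitor samples, 1 per genotype. The deposited values are whole-number UMI counts per gene and barcode in 1 matrix of 27998 genes and 7884 barcodes that pools both libraries. Cell Ranger 1.1 and mm10 come from the submitters' processing notes, and how the authors filtered barcodes is not stated there. From these counts, barcodes with under 500 genes (59) or at least 10% mitochondrial UMIs (2) were left out here, and no doublet caller was run. The rule was applied per cell, G2/M cells were paired on total UMIs within 5%, and summed counts were compared as CPM with exact Poisson intervals (scipy 1.17.1). Shares carry exact Clopper-Pearson binomial intervals. Intervals are at the 95% level and cover counting error only. Cells were thinned to 2000 UMIs for shares of cells with a transcript. With 1 library per genotype there is no test. TMM scaling (edgeR 4.0.16) was an alternative, with other filters, thresholds and comparison cells. The Poisson intervals and the 1.5-fold call were tested on simulated gene counts that held counting error only. The rule, pairing, thinning and splits were not simulated, and neither was spread between cells.

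The members, gene lists and comparisons were chosen with earlier results of these data known. Genes named were all rule genes, up to 4 per list with the most UMIs and up to 3 with the largest ratio, and outside the lists the 10 highest and 10 lowest ratios in both libraries among genes with at least 200 UMIs; other named genes, the tertiles of late genes, the median split and the MHC class II class of 0.5% were chosen after their values were seen. Further lists tried (sort markers, immediate early, p53 targets, BCL2 family, chemokines and cytokines, mature erythroid and macrophage) are given in the closing section.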

Additional observations from a re-analysis of the deposited data

Results flagged for a closer look

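In 3 lists the G2/M cells lay on one side of the paired cells in library 1 and on the other in library 2, and this difference between libraries was not tested. The MHC class II and dendritic list was at log2 ratios of −0.73 and 0.24. Among the paired cells of library 1, 2 cells held 37.0% of its UMIs, and without the 2 richest cells of each set the ratios were −0.23 and 0.09. The myeloid granule list was at 0.22 and −0.0534, and without those cells at 0.12 and −0.03. Cytosolic ribosomal protein genes were at −0.0463 and 0.00664.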

How the results depend on the processing

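The direction of the replication genes (negative), of the G2 and mitosis genes outside the rule (positive) and of lymphoid priming (positive) was the same in both libraries under all alternatives run. With at least 1000 genes and under 5% mitochondrial UMIs, the shares of G2/M cells were 6.75% and 15.7%, the G2 and mitosis ratio in library 1 was 0.70 and the monocyte and dendritic ratio of library 1 turned to −0.0409. With a threshold of 0.75% the shares were 1.66% and 4.92%, and the log2 ratios in library 1 and 2 were 0.97 and 0.63 (G2 and mitosis), −1.24 and −1.21 (S phase), 1.35 and 0.82 (lymphoid), 0.79 and 0.31 (monocyte and dendritic), with stem genes at −0.63 in library 1. Without Top2a and Mki67 in the rule the shares were 3.44% and 9.497%, and the ratios 0.79 and 0.50 (G2 and mitosis), −0.9993 and −1.02 (S phase), 0.62 (lymphoid, library 2) and 0.58 (monocyte and dendritic, library 1). Without the 5% deepest cells they were 0.80 and 0.57 (G2 and mitosis), −0.95 (S phase, library 2), 0.0935 (granule, library 1) and 0.45 (monocyte and dendritic, library 1). Against all other kept cells they were 0.94 and 0.71 (G2 and mitosis), and in library 2 −0.82 (S phase), −0.12 (stem), 0.21 (lymphoid), 0.0738 (granule, reversed), 0.27 (monocyte and dendritic) and −0.0310 (megakaryocyte and erythroid, reversed), with the monocyte and dendritic ratio of library 1 reversed to −0.0204 and 346 genes lower. TMM scaling gave 0.49 for G2 and mitosis in library 2. With at least 200 UMIs 114 genes were higher and 80 lower, since fewer genes were tested; with no minimum 322 were lower. Thinned cells gave shares of 7.32% and 16.7%. Without the 2 richest cells, chosen after seeing the data, the granule ratio of library 1 was 0.12. Without the gene holding most UMIs of a list, also chosen after seeing the data, the lymphoid ratios were 0.446 and 0.23 and the stem ratios 0.0079 (reversed) and 0.31. For the reversals and the other moves the cause was not tested. No paired analysis was possible because each genotype had 1 library with no replicate number, and for the same reason no replicate could be left out. Low UMI counts limit genes such as Ung, Ccne2 and Pkmyt1. In the last 300 bases, Kpna2 shares 97.6% of its 50-base stretches with the gene Gm10184, so its counts are uncertain.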

Other observations

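Beyond the lists described above, p53 targets were at summed log2 ratios of 0.02 and −0.07 in G2/M cells over paired cells, with Gtse1, a gene expressed in G2 that restrains p53, at 2.70 and 1.07. The BCL2 family was at −0.12 and −0.09, sort markers at −0.11 and 0.02 and immediate early genes at −0.23 and −0.01. Chemokine and cytokine genes were at 0.38 and 0.15. Il12a, a subunit gene of interleukin 12, had 123 against 61.5 CPM and 93.1 against 68.3 CPM, and a UMI in 55 of 162 and 221 of 629 G2/M cells, while Ccl4 was at −1.22 and −0.67. Other cells under 0.1%, at 0.1 to 0.3% and at 0.3 to 0.5% of rule-gene UMIs had 126, 72.7 and 53.2 CPM of Il12a in library 1. In library 2 they had 121, 70.4 and 59 CPM. G2/M cells at 0.5 to 0.75%, 0.75 to 1% and 1% or more had 99.4, 135 and 304 CPM in library 1 and 74.5, 121 and 162 CPM in library 2. Mature erythroid genes were at −0.37 and −0.38 and macrophage genes at −0.52 and −0.75, on 51 and 129 and on 23 and 74 UMIs in the paired G2/M cells.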
